A study of Mus musculus with 24 samples.

Results

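Livers of newborn Cyp1b1-null mice were compared with livers of newborn wild-type C57Bl/6J mice, both born to dams fed a vitamin A sufficient diet. The comparison takes 4 of the 24 arrays of the study, 2 labelled Cyp1b1-null and 2 labelled wild type, chosen by their labelled age, genotype and diet. The dams of both groups changed from a breeder diet to a defined low-fat diet at embryonic day 4.5. The livers were taken at birth (PN0), pooled by litter, and hybridised in 1 colour (Cy3) to mouse oligonucleotide arrays. Other groups used below are the same genotypes at birth from dams fed a diet without vitamin A (2 arrays each), and at weaning (PN21) on the sufficient diet. The weaning groups were 2 null arrays, each of 2 mice, and 3 wild-type arrays of 1 pool of 4 mice, counted as 1 sample. The deleted part of the gene, the genetic background of the null mice and the sexes within a litter pool are not given in the sources used here.

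The enzyme made from Cyp1b1 is a P450 mono-oxygenase with polycyclic hydrocarbons, oestradiol and retinoids among its substrates, and in adult tissues it is found mostly outside hepatocytes, in mesenchymal and vascular cells. The newborn liver still makes blood cells while its hepatocytes take up the metabolic work of postnatal life. Its connective tissue lies mainly around the portal tracts and vessels and under the capsule, where fibroblasts and smooth muscle cells lay down collagen and elastic fibres.

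A level is log2 of the processed signal relative to the 75th percentile of its array, and a difference is null minus wild type on that scale, with its standard error (SE). The wild-type arrays had a 75th percentile intensity of 232 and 252, with 47.5% and 52.9% of probes well above background, and the null arrays 404 and 489, with 67.3% and 66.6%. Median local background was 60 and 71 on the wild-type arrays and 25 and 26.5 on the null arrays. The lowest level of any gene was -5.42 and -5.84 on the wild-type arrays and -8.01 and -8.16 on the null arrays. All wild-type birth arrays lay on 1 slide and all null birth arrays on another, scanned on another day, so slide and genotype cannot be told apart in any birth result. Liver markers were bright on all 4 arrays: albumin (Alb) stood at 10.47 and 10.50 in wild type and at 9.79 and 9.56 in null, and the fetal serum protein Afp at 10.21, 10.31, 9.59 and 9.34.

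The array holds 2 probes named for Cyp1b1, and Acta2, a contractile gene described below, has 4 that were measured. The first 30 of the 60 bases of those whose readings the results turn on are shown here, 5′ to 3′, all in lower case since no stretch within them is singled out.
Cyp1b1, transcript probe: actacattaagcagatagatcaccatgtat
Cyp1b1, cDNA clone probe: cccctggtggaaaacagactcaggtcaaaa
Acta2, probe placed on separate exons: atcatcaccaactgggacgacatggaaaag
Acta2, single-block probe: gttttgtggatcagcgcctccagttccttt

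The Cyp1b1 transcript probe lies at chr17:80106547-80106606 of mouse build mm9, on the minus strand, and is assigned to the RefSeq transcript NM_009994. Its level was -4.99 and -4.32 on the wild-type arrays and 0.24 and 1.01 on the null arrays. Both arrays labelled null thus read higher for the targeted gene than both arrays labelled wild type. The difference was 5.28 ± 0.76 (SE, n = 2 and 2 arrays; limma, Benjamini-Hochberg adjusted p = 0.0056). The probe was not well above background on either wild-type array, so the rise is at least 16.02-fold. Such a bound sets the mean of the bright group against the lowest signal well above background on each array of the dim group, or the probe's own signal where higher. Without wild-type array 1 or null array 2 the difference was 4.94 and 4.89 and the call was lost (limma, adjusted p = 0.131 and 0.132). The clone probe, at chr17:80100918-80100977 on the same strand, lies 5629 bases away, on the side towards which the gene is read. It gave -5.18 and -4.98 in wild type against -3.99 and -4.40 in null, a difference of 0.88 ± 0.94 that did not pass the test over all 30926 measured probes (limma, adjusted p = 0.672). Whether either probe lies in the deleted part is not known, so neither checks the genotype labels. The transcript probe was also higher in null on the deficient diet (3.54, limma, adjusted p = 0.00709), and its difference at weaning, 2.96, did not pass (adjusted p = 0.107). The clone probe had the opposite sign in both comparisons, at -1.98 and -2.26, and did not pass (limma, adjusted p over probes 0.196 and 0.555).

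**Figure D1:**
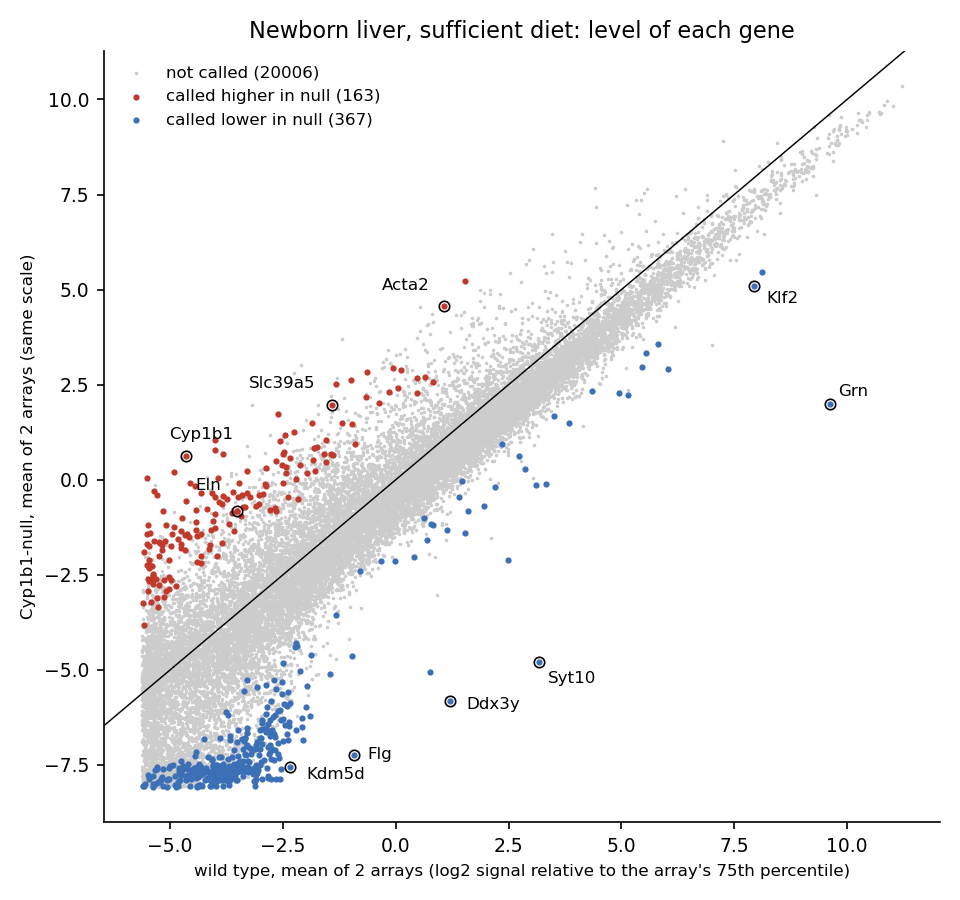
Mean level of each of 20536 genes on the 2 wild-type arrays (horizontal) and the 2 null arrays (vertical), both log2 relative to the array's 75th percentile, with the line of equal level. The 163 genes called higher in null are red and the 367 called lower are blue, and most of the blue points lie along the lower edge, near the lowest levels that the null arrays show.

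Of 20536 genes, 530 passed an adjusted p under 0.05 (2.58%, limma, Benjamini-Hochberg), 163 of them higher in null (0.794%) and 367 lower (1.79%). Rises ran from 1.66 to 5.54 with a median of 2.91, and falls from -1.41 to -7.97 with a median of -3.67. The median difference of all genes was -0.48, and both null arrays lay above both wild-type arrays for 17.3% of genes and below them for 54.7%. With quantile normalization in place of the 75th percentile the split of 146 calls (0.711%) was 128 higher (0.623%) and 18 lower (0.0877%), at a median difference of -0.17 for all genes. Leaving out wild-type array 1, wild-type array 2, null array 1 or null array 2 left 1, 15, 48 and 3 calls, 32 genes were called with the slide as a random block, and 6257 without the 2 weaning arrays that correlate least with the others of their age. The rises and falls differed in where the signal stood against background. All 163 rises were well above background on both null arrays, 49 of them on all 4 arrays and 96 on no wild-type array. Of the 367 falls 44 were well above background on all 4 arrays, 105 on at least 1 wild-type array and no null array, and 205 on none of the 4. The 2046 genes above background on none of the 4 arrays had a median difference of -2.35, and 99.9% of them lay below 0, so no fold is given for a fall among them. For the 13368 genes above background on all 4 arrays the median difference was -0.47, with 0.367% called higher and 0.329% called lower. When the fit was limited to probes above background on all 4 arrays, 0 of 13446 genes passed (limma, 1763 at an unadjusted p under 0.05).

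The calls also differed with the base composition of the probes, though not along one line. The median GC content was 45% for probes of the rises, 36.7% for probes of the falls and 43.3% for the genes not called. Among 336 genes whose probe had at most 30% GC, 51 were called lower and 0 higher, and their median difference was -1.08. Among 3311 genes with probes above 50% and up to 55% GC, 20 were called lower and 54 higher, at a median of -0.28. Above that, 2 of 191 genes with up to 60% GC were called lower and 0 higher, and of 132 genes over 60% GC 8 were called lower and 1 higher, at a median of -0.67. The part of probe composition in single results was not tested beyond the scaling given in the closing section.

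The rises seen on all 4 arrays included genes that cells of every kind use, named here after their values were seen. U2af2 encodes the large subunit of the splicing factor that binds the polypyrimidine tract. It gave -2.80 and -2.93 in wild type against -0.34 and 0.01 in null, a rise of 2.71 ± 0.48 (limma, adjusted p = 0.0181). A second probe of U2af2 differed by 2.12, close to the threshold over all probes (limma, adjusted p = 0.0544). The groups did not overlap on either probe. Eif4a3, a helicase of the exon junction complex, stood at -1.22 and -0.73 in wild type against 1.27 and 1.66 in null. Snrpb, a core protein of the spliceosomal ribonucleoproteins, read -0.60 and -0.68 against 2.67 and 3.02. Prpf19, a ubiquitin ligase of the spliceosome, read -2.68 and -2.55 against 1.42 and 2.02. In each of the 3 the null arrays lay at least 2 log2 units above the wild-type arrays. Prmt1, the main arginine methyltransferase, rose by 3.62 ± 0.85, Cct3, a subunit of the cytosolic chaperonin, by 2.40 ± 0.58 (a dim second probe differed by -0.29), and Eif3k, a translation initiation factor subunit, by 2.20 ± 0.54.

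Slc39a5, a zinc importer of hepatocytes, pancreas and gut, had -1.34 and -1.47 in wild type against 1.95 and 2.00 in null, a rise of 3.38 ± 0.68 (limma, adjusted p = 0.0247). Cyba, the p22 subunit of the phagocyte NADPH oxidase, had -0.25 and -0.07 against 2.47 and 2.14. Both genes were well above background on every array and their groups lay apart by over 2 log2 units.

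Among the rises not seen in wild type, the highest bound was at least 21.2-fold, for Cenpb, which binds a centromeric DNA box. Bax, a pore-forming effector of apoptosis and a p53 target, rose at least 17.8-fold, from -4.22 and -3.78 to 0.74 and 0.81. Rab4b, a small GTPase of recycling endosomes, rose at least 9.72-fold and Plpp2, a lipid phosphatase, at least 9.23-fold. Fitm1, a lipid droplet protein best known from skeletal muscle, rose at least 8.48-fold but unevenly, with -2.18 and 1.59 on the null arrays. Upk3b, a membrane protein made by mesothelial cells that cover organs, read -5.15 and -4.79 in wild type against -1.70 and -1.16 in null (limma, adjusted p = 0.00782), at least 3.84-fold higher. Rftn1, a raft protein of B cells, rose at least 4.37-fold and Mrm2, a mitochondrial rRNA methyltransferase, at least 5.81-fold. Over the 87 rises with a bound the median was at least 3.30-fold.

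The falls on all 4 arrays were fewer and several rested on bright spots. Klf2, a flow-responsive transcription factor of endothelium and lymphocytes, read 7.98 and 7.88 in wild type against 5.38 and 4.80 in null, a fall of 2.84 ± 0.63 on the log2 scale (limma, adjusted p = 0.0331). Smndc1, a splicing factor, read 1.36 and 1.69 against -1.59 and -1.19. In both genes the null arrays lay below the wild-type arrays by over 2 log2 units. Bcat2, the mitochondrial aminotransferase of branched-chain amino acids, differed by -2.30 ± 0.40 and Ubl7, a ubiquitin-like protein, by -2.59 ± 0.50. Among genes of blood cells, Parvg, an adhesion protein, fell by 1.501 ± 0.38 and Tbxas1, thromboxane synthase, by 1.41 ± 0.36. Jak3, the kinase of common gamma chain cytokine receptors, fell by 1.87 ± 0.46, while its other probes differed by 0.00 and 1.70.

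Probes of the same gene often disagreed. Of 35 called rises with at least 2 measured probes, every other probe was higher in 17, and in 11 an other probe was higher by at least 0.5 times as much. Of 41 such falls, every other probe was lower in 32, and lower by that share in 17. A large fall that a second probe did not share was that of Grn, which encodes the lysosomal growth factor precursor progranulin. One Grn probe read 9.69 and 9.54 in wild type against 1.99 and 1.99 in null (difference -7.63 ± 1.37, limma, adjusted p = 0.0183). The other read 3.89 and 3.69 against 4.15 and 3.77, with overlapping groups. Hira, a histone chaperone subunit, rose by 4.89 ± 0.67 on 1 probe and differed by 0.15 and 0.67 on 2 others. The phosphatase Ppp5c rose by 5.11 ± 0.94 on 1 probe and differed by -0.15 on the other, and the G protein subunit Gnb4 by 4.10 ± 0.54 and -0.69. None of these 3 rising probes was well above background on a wild-type array, so their sizes depend on signals at background. The second probes of Klf2 and Smndc1 differed by 0.06 and 0.40. The transcriptional repressor Zbtb7a was called in both directions, with one probe 2.94 higher, another 4.52 lower and its brightest at -1.22 (adjusted p over probes 0.0173, 0.0201 and 0.115). For these genes the direction of the whole transcript's change is not settled by the array.

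Over all probes 887 were called (2.87%), and 13 genes with a current symbol were called on at least 2 probes, 6 of them higher and 5 lower on every probe called. The ones that rose on 2 probes included Arl2, a tubulin-folding GTPase (3.54 and 3.21), and Tnfrsf21, a death receptor (3.98 and 2.63). Another measured Tnfrsf21 probe differed by 0.70 and was not called. Col1a1, Ube2g2 and Ndor1 each rose on 2 of their 3 probes. The brightest probe of Ube2g2, a ubiquitin-conjugating enzyme, and that of Ndor1, a flavin reductase, did not rise, at -0.46 and -0.37. Those that fell on 2 probes included Syt10, a synaptotagmin of neurons, which read 3.26 and 3.099 in wild type against -4.64 and -4.94 in null on its brighter probe and differed by -3.76 on the other. Trim9, a brain ubiquitin ligase, and the transporter Slc38a11 were each called lower on 2 probes. Of these 1 was above background on no array and the other on no null array. Another measured Trim9 probe, well above background on both null arrays, differed by 0.05.

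In the genes of elastic fibres, Eln and Loxl1 rose, 2 of 21 measured, where 0.794% of all genes rose. Eln encodes elastin, and read -2.97 and -4.07 in wild type against -1.26 and -0.38 in null. The null arrays were both above the wild-type arrays, by 2.70 ± 0.64 (limma, adjusted p = 0.0389), at least 5.45-fold. Loxl1, an oxidase that cross-links elastin, read -2.34 and -2.66 against -0.63 and 0.47, a rise of 2.42 ± 0.58 (adjusted p = 0.0392). Lox, the related cross-linking enzyme, differed by 2.54 ± 0.66 and just missed the threshold (adjusted p = 0.0526). The microfibril-associated glycoprotein Emilin1 differed by 2.08 and fibulin 1 (Fbln1) by 1.81, neither called, while Fbln5 and Ltbp4, which help place elastin on microfibrils, differed by -0.84 and -0.93. The median over the list was 0.19, against -0.48 for all genes. On both null arrays 9 members were higher and 4 lower than on both wild-type arrays, against 17.3% and 54.7% of all genes. Null array 2 had the highest level of the 4 arrays for 13 of the 21, and without it the median was -0.08.

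Of 35 collagens and other matrix genes 1 was called, Col6a2, a chain of collagen VI, a share near the 2.58% of all genes. It read -2.96 and -2.82 in wild type against -0.54 and 0.32 in null, a rise of 2.78 ± 0.70 (limma, adjusted p = 0.0463), and its second, dim probe differed by 0.93. Col1a1, the main chain of collagen I, had 3 probes that differed by 1.70 (the brightest, not called), 2.40 and 2.78 (adjusted p over probes 0.0288 and 0.0478). Its partner Col1a2 differed by 1.59 ± 0.80 and Col3a1 by 0.89, neither called. The list's median was 0.52, with 17 members higher and 5 lower on both null arrays (17.3% and 54.7% of all genes). Null array 2 was highest for 20 of the 35, and without it the median was 0.26.

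Smooth muscle genes had 3 called members of 16, all higher (0.794% of all genes): Acta2, Actg2 and Tpm2. Acta2, smooth muscle actin, read 0.91 and 1.23 in wild type against 3.57 and 5.54 in null on the probe placed on separate exons (chr19:34322995-34326249 of mm9, minus strand), a rise of 3.49 ± 0.76 (limma, adjusted p = 0.0322). Its 3 other measured probes, all between positions 34314826 and 34316119, differed by 0.95, 0.06 and -1.18, and none was called. Actg2, enteric smooth muscle actin, read -1.82 and -1.37 against 0.58 and 0.76 and rose by 2.26 ± 0.50, with the null arrays close together. Tpm2, a tropomyosin of smooth and skeletal muscle, rose by 3.01 ± 0.75, but read 1.25 on null array 1 and 4.64 on null array 2, and its second probe differed by 1.29, not called. Desmin (Des) read -4.20 and -4.15 in wild type against -2.33 and 2.48 in null and was not called (difference 4.25, adjusted p = 0.0818). Myl9 and Tagln, bright contractile genes, differed by -0.46 and -1.46 and were not called, while a dimmer Tagln probe was called higher over probes (2.64, adjusted p = 0.0402). The list's median was 1.52, and 1.09 without null array 2. In bulk liver, more cells of a type and more RNA per cell cannot be told apart.

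**Figure D2:**
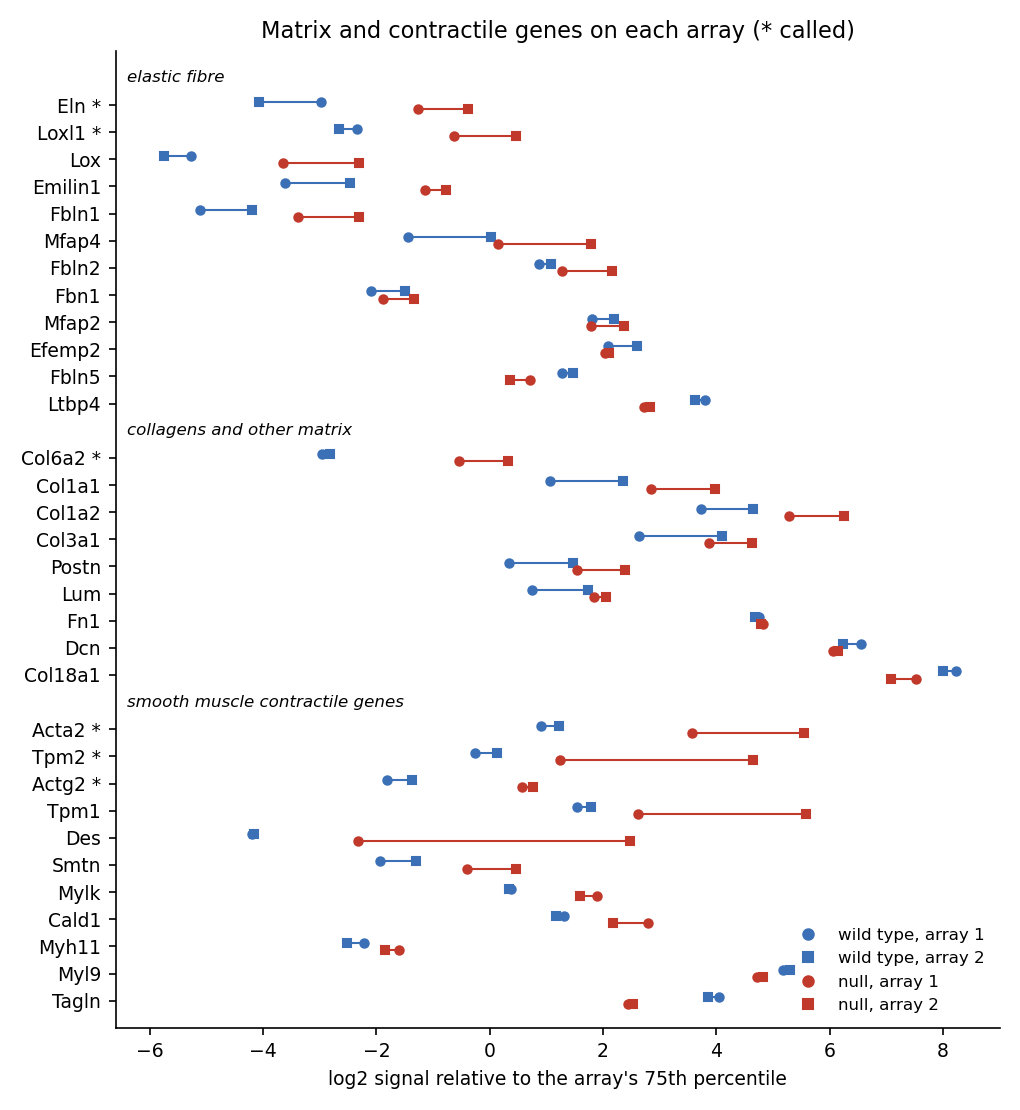
Level of 32 elastic fibre, matrix and smooth muscle genes on each of the 4 arrays (log2 relative to the array's 75th percentile; circles, array 1; squares, array 2), with a line joining the arrays of a genotype. Eln, Loxl1, Col6a2, Acta2, Tpm2 and Actg2 carry a star for an adjusted p under 0.05. Tpm2 and Des are far higher on null array 2 than on null array 1, at 4.64 against 1.25 and 2.48 against -2.33.

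Null array 2 differed from the other 3 in genes of neighbouring tissues. Of 23 measured skeletal muscle genes 22 were over 1 log2 unit higher on null array 2 than on any of the other 3 arrays, and of 21 exocrine pancreas genes 17 were. The muscle list had medians of -4.19 and -2.51 on the wild-type arrays, -2.80 on null array 1 and 2.83 on null array 2. The pancreas list had -2.65, -2.82, -3.18 and 1.80 in the same order. Acta1, skeletal actin, read -3.86 and -0.36 in wild type against -1.32 and 7.35 in null, and creatine kinase Ckm -5.11, -5.58, -4.52 and 4.23. The pancreatic elastase Cela3b read -3.77 and -2.82 in wild type against -2.57 and 4.35 in null. No member of either list was called (the background share is 2.58%), and the list medians of 2.97 and 1.98 became -0.32 and -0.26 without null array 2. Wild-type array 2 carried some muscle signal as well, such as 2.54 for the perinatal myosin Myh8, which stood at -4.94 on wild-type array 1. Fitm1 and Tpm2 moved with this array as given above, and the part of muscle or pancreas RNA in the contractile and matrix results was not tested. Without null array 2 the differences of Eln, Loxl1, Col6a2, Acta2, Actg2 and Tpm2 were 2.26, 1.87, 2.35, 2.50, 2.17 and 1.32, and none of the 6 passed the test, which then called 3 genes of all.

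**Figure D3:**
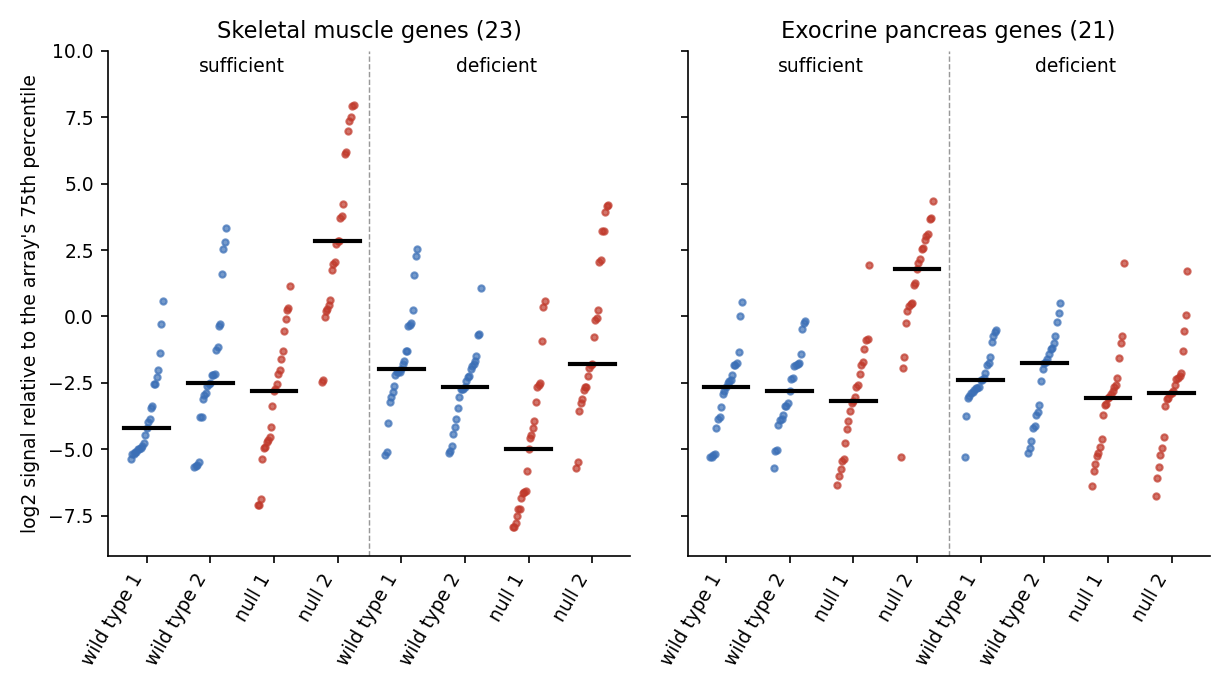
Levels of the 23 skeletal muscle genes and the 21 exocrine pancreas genes on each of the 8 birth arrays (log2 relative to the array's 75th percentile, 1 point a gene, black bar for the list's median). Null array 2 of the sufficient diet has medians of 2.83 and 1.80, above those of the 7 other arrays in both lists.

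Epidermal genes ran the other way. All 16 measured members had differences below 0, with a median of -2.22. Over all genes 14611 of 20536 lay below 0, with a median of -0.48. In 13 members both null arrays lay below both wild-type arrays, against 54.7% of all genes. Of the 16, 1 was called, where 1.79% of all genes were called lower. With quantile normalization the median was -0.98 and 3 members were higher, and over all alternatives the median ran from -2.51 to -0.32. The called member was Flg, filaggrin, at 1.05 and -2.88 in wild type against -7.85 and -6.61 in null. It was at least 30.8-fold lower (limma, adjusted p = 0.0189). That bound leans on wild-type array 1, without which the difference was -4.35 and not called (adjusted p = 0.205), and the call was also lost without null array 1 or 2 (0.114 and 0.175). On wild-type array 1, 9 of the 16 were over 1 log2 unit above the other 3 arrays, among them keratin 5 (Krt5) at 1.30 against -3.93, -4.54 and -4.89. For 7 of the 16 no measured probe was well above background on either null array.

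Of the 4 Y chromosome genes measured in the list of sex-specific genes 3 fell, where 1.79% of all genes fell. Kdm5d, a histone demethylase, read -2.18 and -2.53 in wild type against -7.43 and -7.67 in null (adjusted p = 1.23e-05, limma), at least 11.4-fold lower and the lowest adjusted p of the comparison. Ddx3y, an RNA helicase, read 1.75 and 0.64 against -7.72 and -3.90, and Eif2s3y, a translation initiation factor subunit, 1.41 and 0.11 against -6.49 and -3.64. Of the null arrays, 1 was well above background for each of them. Xist, the RNA that coats the inactive X chromosome, overlapped between the genotypes, at 2.61 and 4.10 in wild type against 4.08 and 3.18 in null. The fourth, Uty, differed by -2.89 and was not called (adjusted p = 0.0735), with no array well above background. On the deficient diet Ddx3y read 1.82 and 1.69 in wild type against -7.76 and -7.55 in null, and Kdm5d -1.44 and -1.48 against -7.01 and -7.39. These null values lie below the lowest signal well above background on those arrays, -5.69 and -5.47, so no fold is given. Xist on that diet read -5.21 and 2.65 in wild type against 3.77 and 3.52 in null. At weaning, where the labels give male mice, Ddx3y and Kdm5d differed by 0.34 and -0.09. The litters were pooled without regard to sex in the labels, and the share of males in each pool was not tested.

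Of the 35 measured genes of vitamin A and retinoic acid handling none was called (limma, background 2.58%), with a median of -0.40 against -0.48 for all genes. Rbp4, the retinol carrier of plasma, was bright, at 10.32 and 10.11 in wild type against 9.40 and 9.26 in null. The groups lay apart, as for 54.7% of all genes in that direction. The difference of -0.88 was close to its SE of 0.85. Lrat, which esterifies retinol for storage, differed by 1.16 ± 0.52 and Dhrs3, which reduces retinal to retinol, by -1.05 ± 0.92. The retinal dehydrogenases Aldh1a1 and Aldh1a2 differed by -0.99 and 0.06. The retinoic acid hydroxylases Cyp26a1 and Cyp26b1, which retinoic acid induces, differed by 0.00 and 0.08, and Cyp26a1 was above background on no wild-type array. The retinoic acid receptor Rarb differed by -0.57, the retinol transporter Stra6 by 0.04, and the carrier Rbp2 of gut by -1.82. The retinal reductase Dhrs4 had the largest difference, from 0.62 and 0.33 to 3.70 and 3.73, and was not called (3.25 ± 1.28, adjusted p = 0.184). The 27 measured Ah receptor and xenobiotic P450 genes also had 0 calls. The median SE over all genes was 0.74, and the smallest called rise and fall of any gene were 1.66 and -1.41. Whether a difference passed depended on the gene's own SE as well as its size. A difference that was not called may therefore still be present.

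Of 33 gene lists 19 had no called member, 11 had 1 and 3 had more. Their 751 measured members, a gene counted in each of its lists, held 10 calls higher and 9 lower. Of all 20536 genes 530 were called (2.58%), 0.794% higher and 1.79% lower. The 29 erythroid genes had 0 calls and a median of -0.19: the haemoglobin chain Hba-a1 read 9.40, 9.80, 9.81 and 9.38, and Alas2, the first enzyme of haem synthesis in red cells, differed by -1.23 ± 0.87. The 28 adult hepatocyte genes (median -0.39) and the 22 fetal liver genes (-0.28) had none called. These medians and that of the erythroid genes are not settled in sign, since quantile normalization gives 0.17, 0.02 and 0.21. The adult hepatocyte median was also 0.24 without wild-type array 1 and 0.07 without null array 2, and the erythroid median 0.23 without wild-type array 2. In the adult hepatocyte and fetal liver lists single genes stood out without passing. Cyp8b1, the sterol 12-alpha-hydroxylase of bile acid synthesis, differed by 3.09 (limma, adjusted p = 0.0854) and the apolipoprotein Apoa4 by 2.90 (0.0899). Of the 22 fetal liver genes 14 lay below 0. Fbp2 had the largest difference of that list, 3.36, with -3.38 and -0.04 on the null arrays. Igf2bp3, a fetal RNA-binding protein, differed by 1.31 on the probe used and by 0.49 and 0.32 on its others. The 36 genes of oxidative phosphorylation had a median of -0.53 and 0 calls, with Sdhb, a subunit of complex II, at 2.28. The endothelial (18), Kupffer cell (18), stellate cell (16), lymphocyte (21) and neutrophil (17) lists had 0 calls each, with medians from -0.75 to -0.45. Within them both ways occurred: the complement genes C1qa and C1qb of macrophages differed by 3.21 and 1.99, and the endothelial receptors Stab2 and Flt4 by -1.36 and -1.30.

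Lists with 1 call gave isolated genes. Steap3, the ferrireductase of iron uptake, rose at least 1.41-fold among 21 iron genes, while its second, dimmer probe differed by -2.08. Orm3, an acute phase glycoprotein, fell at least 9.52-fold among 30, and Nphs1, the podocyte protein nephrin, at least 11.5-fold among 12 gut and kidney genes. Slc7a11, the cystine transporter, and Ifi202b, an interferon-inducible gene, differed by -4.08 and -2.68 and were above background on none of the 4 arrays, so no fold is given. Other large falls with a bound were Tmem30c (at least 9.01-fold), Adcy8, a brain adenylyl cyclase (at least 9.90-fold), Spata4 (at least 6.75-fold) and Hdgfl1 (at least 6.74-fold). The last 3 were well above background on 1 of the 2 wild-type arrays.

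The same genotypes on the deficient diet came from other litters on the same 2 slides. All 163 rises had a difference above 0 there and all 367 falls one below 0, and 116 and 335 of them were called, where 1.66% of all genes were called higher and 11.7% lower. Of genes not called on the sufficient diet, 63.5% of those above 0 and 92.0% of those below 0 kept their side. The median rise was 2.91 on the sufficient and 2.22 on the deficient diet, and the median fall -3.67 and -3.84. No gene passed the test of the difference between the 2 genotype differences (limma, 0 called, 332 at an unadjusted p under 0.05). The matrix and contractile calls had smaller values on the deficient diet. Eln read -1.14 and -1.91 in deficient wild type and -2.27 and -0.66 in deficient null, overlapping, a difference of 0.07 (test of the diet difference: unadjusted p = 0.0104, adjusted p = 1.00 over all genes). Loxl1, Col6a2, Actg2 and Tpm2 differed by 0.97, 1.26, 0.85 and 1.62 and were not called. Acta2 differed by 2.83 on the probe placed on separate exons (limma, adjusted p = 0.0222). Its other measured probes lay lower in null on that diet, with differences of -0.89, -2.14 and -2.74. Snrpb differed by 3.07, Prmt1 by 3.44, Cct3 by 2.46 and Klf2 by -2.84.

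At weaning, on other slides, 157 of the 163 rises and 357 of the 367 falls had the same sign, against 63.9% and 69.9% of the genes not called. There too the genotypes lay on different slides, and both null arrays were scanned on the same day as the null birth arrays. The weaning wild-type arrays were scanned on other days. Median local background was 37.5 and 38 on these null arrays and 57.5, 57 and 62.5 on the wild-type arrays. Slide and genotype thus cannot be told apart at weaning either. The median rise was 0.86 there and the median fall -3.56, and 4 genes of 20536 were called (0.0195%), 1 higher (0.00487%) and 3 lower (0.0146%). Slc39a5, Klf2 and Grn, for instance, differed by -0.21, -0.09 and 0.48 at weaning. Flg differed by -5.79 at weaning (limma, adjusted p = 0.0513).

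**Figure D4:**
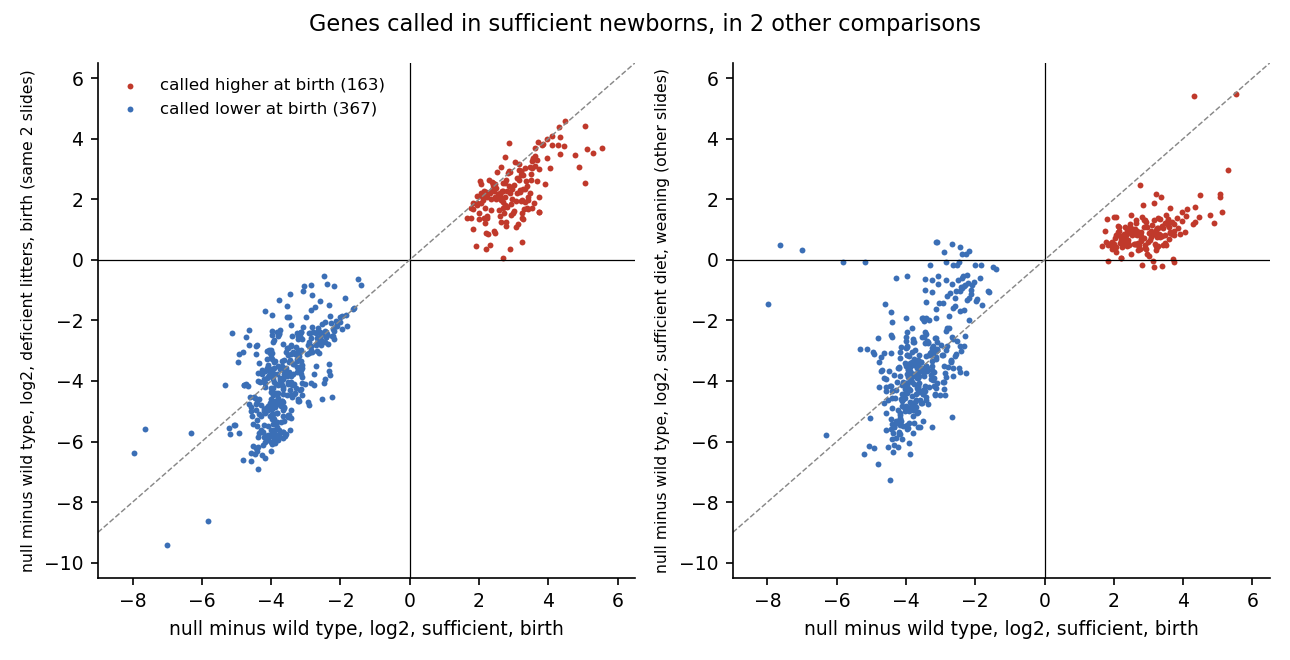
Difference of the 530 called genes in sufficient newborns (horizontal, log2) against their difference in deficient newborns (left) and at weaning (right), with lines at 0 and a dashed line of equal difference. In deficient newborns all 163 rises and 367 falls keep their side, and at weaning the rises have a median of 0.86 and the falls of -3.56.

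Around Cyp1b1, 52 measured probes of 27 genes lie within 1 Mb of the transcript probe on either side. Over probes (background 2.87%), 3 were called: the Cyp1b1 transcript probe, and 2 probes of Prkd3, a protein kinase D gene, at -737 and -735 kb from it. The 5 Prkd3 probes all lay lower in null, without overlap, as did 54.7% of all genes. The 2 called ones differed by -3.63 ± 0.57 and -3.75 ± 0.88 (limma, adjusted p over probes 0.0125 and 0.0364). The first of these read -1.68 and -1.05 in wild type against -4.77 and -5.22 in null, and it lies at chr17:79369291-79369350 of mm9. The second read -2.28 and -2.20 in wild type against -6.05 and -5.925 in null. It was well above background on no null birth array of either diet, so the size of its fall depends on signals at background. The other 3, which are brighter, differed by -1.65, -1.002 and -1.22 and did not pass. On the deficient diet the same 2 were called (-2.63 and -4.44), and at weaning they differed by -1.51 and -3.77, not called. The next genes to Cyp1b1 showed no call: Rmdn2 on one side differed by 0.07, and Atl2 and Hnrnpll on the other by -0.18 and -0.28, with all 3 well above background on every array. Arhgef33, a guanine nucleotide exchange factor gene, differed by -2.80 (limma, adjusted p over probes 0.0802), and Galm, which encodes galactose mutarotase, by 2.37 on one probe (0.0849) and -1.20 on the other. The non-coding gene 4930429F11Rik differed by -2.60 with no array above background. On the deficient diet 3 probes of the window were called higher and 5 lower. In the fit over genes, a different unit, 1.66% were called higher and 11.7% lower on that diet. No share over all probes is given for it. The higher ones were those of Cyp1b1 (3.54), Galm (2.71) and Gpatch11 (1.10). The lower ones were the 2 of Prkd3 and those of Arhgef33 (-3.46), 4930429F11Rik (-4.29) and the clone AK049745 (-3.42). Neither 4930429F11Rik nor AK049745 was well above background on any deficient birth array. The median over the window was -0.28, against -0.36 for all measured probes.

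**Figure D5:**
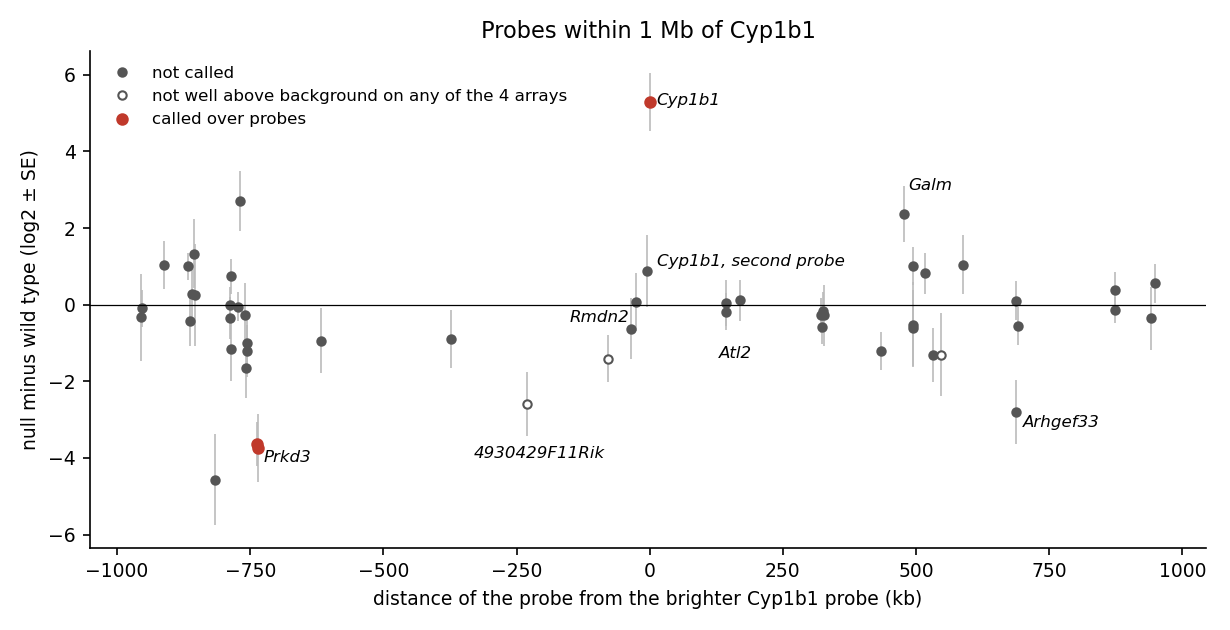
Difference between null and wild type of each of the 52 measured probes within 1 Mb of the Cyp1b1 transcript probe (log2, bars are SE) against the distance in kb. The Cyp1b1 transcript probe at 5.28 and 2 Prkd3 probes at -3.63 and -3.75 are red for an adjusted p under 0.05 over all probes, and open points were well above background on none of the 4 arrays.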

How the data were processed

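Liver RNA was measured on 1-colour Agilent arrays. The deposited values are background-subtracted intensities (processed signal), which the authors obtained with Agilent Feature Extraction 10.7.3.1, per the file headers. The submitters' processing notes list Agilent Feature Extraction and limma, without versions. Here log2 of the processed signal was taken relative to each array's 75th percentile. Control spots and 2048 spots marked as outliers were left out, spots of one probe were averaged, and a probe was kept where all arrays of some group detected it well above background, which left 30926. A gene is represented by its brightest measured probe. The difference was fitted with limma 3.58.1 (R 4.3.3) over 22 samples of all groups, with 12 residual degrees of freedom, and Benjamini-Hochberg adjustment over 20536 genes at 0.05; the script was tested on simulated data. Alternatives changed the scaling, background correction, filter, probe summary, samples and blocks. Replicates are separate litter pools only as far as the labels say, so p-values measure the spread between these samples, and 2 arrays a group limit the precision. Gene symbols came from RefSeq accessions for 27888 probes and otherwise from symbols or synonyms of the RefSeq gene table, and 7460 kept the file's name. The members and lists were chosen with earlier results of these data known. Genes named by rule are Cyp1b1, the 10 largest rises and 10 largest falls with a current symbol, up to 3 called members of each list (or the 2 largest differences where none was called), genes also called with quantile normalization or on 2 or more probes, retinoid genes and neighbours. Other genes singled out were chosen after their values were seen.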

Additional observations from a re-analysis of the deposited data

How the results depend on the processing

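On the sufficient diet at birth 530 genes were called. Median scaling called 1483, normexp with quantile normalization 14, quantile normalization 146, no filter on dim probes 2711, the newborn arrays alone 4415, the 4 arrays alone 2998, and the slide as a random block 32. Leaving out the 2 weaning arrays that correlate least with others called 6257. Chosen after seeing the data, probes above background on all 4 arrays gave 0 of 13446 genes (limma, 1763 at an unadjusted p under 0.05), scaling within GC bins 1276, and quantile normalization without those 2 weaning arrays 2832. Leaving out 1 array at a time gave 1 to 48. For the difference between diets (0 called), the newborn arrays alone gave 1, leaving out the 2 weaning arrays 10, with quantile normalization 7, and leaving out 1 array 0 to 2. On the deficient diet (2752), the counts were 180 (quantile), 15 (normexp), 6487 (no filter), 5385 (newborn arrays), 7903 (without the 2 weaning arrays), 1714 (slide block), 25 (above background on all 4) and 5005 (quantile without the 2). At weaning (4), they were 0, 1083 (median scaling), 1 (normexp), 2689 (without the 2), 1670 (slide block), 1 (all 4), 1035 (GC bins) and 537 (quantile without the 2).

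With the replicate number as a replicate block, 1737 genes were called on the sufficient diet, 4261 on the deficient diet and 1906 at weaning. The correlation of null array 1 minus array 2 with the same difference in wild type was 0.188 over genes, and the labels give the numbers no shared litter or day.

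Signs turned as follows. With quantile normalization, with or without the 2 weaning arrays, Atl2 was 0.00066, Aldh1a2 -0.0096, Cyp26a1 1.02, Alb 0.24 and Hba-a1 1.19. Median scaling gave Cyp26a1 0.11 and Hba-a1 0.11, and normexp Hnrnpll 0.0032, Cyp26a1 0.30, Rbp4 0.0622, Afp 0.27 and Hba-a1 0.82. The mean of probes gave Rmdn2 -0.28, Ndor1 1.60, Ube2g2 1.79 and Tagln 0.59. Probes above background on all 4 arrays gave Ppp5c -0.15 and Gnb4 -0.69, both called higher otherwise and read here from another probe, and GC bins Cyp26b1 -0.0875 and Stra6 -0.36. Leaving out 1 array gave Aldh1a2 -0.44 to 0.56, Cyp26b1 -0.36 to 0.51, Ndor1 -0.89 to 0.15, Xist -0.47 to 1.02, Rmdn2 -0.16 to 0.30, Cyp26a1 -0.50 to 0.50, Hba-a1 -0.22 to 0.21, Stra6 -0.48 to 0.55, Cpb1 -0.54 to 7.62, Atl2 -0.61 to 0.25 and Ctrc -0.0882 to 5.27. Cyp1b1 was called in 14 of 17 alternatives, Kdm5d in 16 of 17, Eln in 10 of 17, Acta2 in 11 of 18 and Snrpb in 10 of 18. Under the slide block Eln, Loxl1, Acta2 and Snrpb were not called (limma, adjusted p = 0.112, 0.138, 0.0721 and 0.116), and Cyp1b1 was (0.0223). The causes were not tested.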
